A study of Mus musculus with 24 samples.

Results

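The genes described here are 31 genes of cholesterol and fatty acid synthesis, taken by name from the 25471 genes listed in any of 3 tables of mutant against control cells from the embryonic mouse brain. They are 8 enzymes of the mevalonate and isoprenoid pathway, 12 enzymes of the route from squalene to cholesterol, 5 genes of sterol sensing and transport, and 6 enzymes of fatty acid synthesis. All 31 had an adjusted p in each table. Messenger RNA was sequenced from cells sorted by flow cytometry in 24 libraries, and every mouse, controls included, carried Pdgfrb-Cre and 1 copy of the ZsGreen reporter (Zs/+). Controls were Alk5(flox/+) and mutants Alk5(flox/flox), where Alk5 is an older name of Tgfbr1, a receptor for TGF-beta, and the mutants carry the disease state GMH-IVH in the labels. The groups were pericytes at E11.5 (4 controls and 4 mutants), pericytes at E13.5 (4 and 4) and endothelial cells at E13.5 (5 and 3). Pdgfrb drives Cre in pericytes but also in other mural and mesenchymal cells. The labels do not say whether libraries came from separate litters or pooled embryos, so the p-values speak only of the spread among these libraries, which may be technical. The question was how loss of ALK5 in pericytes changes gene expression during growth of brain vessels.

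Each of the authors' deposited tables gives, per gene, a mean of normalised counts for the mutant and for the control group, the ratio of the means, a p and an adjusted p. Levels per library and read depth were not analysed here, so no overlap between libraries could be read, and the error of a log2 ratio below is the standard error (SE) that the deposited ratio and p imply together. A gene is called higher or lower where the deposited adjusted p, taken as that of DESeq2, is under 0.05. Tgfbr1 had log2 ratios of mutant over control of 0.43 (pericytes at E11.5), 0.031 (pericytes at E13.5) and -0.11 (endothelial cells) in the authors' deposited tables, none of them called. A whole-gene mean does not set the deleted exons apart, so it does not check the genotype, and every direction below rests on the labels. Among controls, 12 endothelial markers had a median level at the 98.7th percentile of the endothelial table, where 11 pericyte markers lay at the 31.2nd. In the same controls red cell markers lay at the 93.8th percentile, myeloid markers at the 74.2nd and fibroblast and meninges markers at the 51.7th. The part of such cells in the control levels below was not tested. In the 2 pericyte tables the pericyte markers lay at the 72.8th and 81.8th percentiles, endothelial markers at the 44.3rd and 43.2nd, and 12 markers of fibroblasts and meninges at the 89.8th and 98.1st. In bulk samples, fewer cells of a type and less RNA per cell cannot be told apart.

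Cholesterol is built from acetyl-CoA. The mevalonate enzymes make isoprenoid units and farnesyl diphosphate, and the later enzymes join farnesyl units into squalene and close and trim the sterol rings. Fatty acid synthesis starts from the same acetyl-CoA, which ATP citrate lyase (Acly) supplies in the cytosol. Both branches are under SREBP transcription factors, which SCAP carries to the Golgi for cleavage when sterols are low and INSIG proteins hold back when sterols are high. SREBP2 acts mainly on sterol genes and SREBP1c mainly on fatty acid genes, and SREBPs act together with the factor NF-Y. The embryonic brain makes its own cholesterol once the barrier to blood lipoproteins closes.

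Because SREBP and NF-Y work at sites just upstream of these genes, the promoters of 4 of them are shown, from the RefSeq table of build GRCm38.p6. Hmgcs1 makes the HMG-CoA that enters the mevalonate pathway and Mvd makes isopentenyl diphosphate, while Fasn is fatty acid synthase. Each line holds the 250 bases that end just before the gene's start, 5′ to 3′ on the gene's own strand. Capitals mark an SREBP element as searched (TCACNCCAC) or an NF-Y box (CCAAT, or ATTGG where the box lies on the other strand). The Hmgcs1 window is chr13:119690101-119690350 on the plus strand, and those of Mvd (chr8:122443423-122443672), Fasn (chr11:120824548-120824797) and Acly (chr11:100528001-100528250) are on the minus strand.
Hmgcs1: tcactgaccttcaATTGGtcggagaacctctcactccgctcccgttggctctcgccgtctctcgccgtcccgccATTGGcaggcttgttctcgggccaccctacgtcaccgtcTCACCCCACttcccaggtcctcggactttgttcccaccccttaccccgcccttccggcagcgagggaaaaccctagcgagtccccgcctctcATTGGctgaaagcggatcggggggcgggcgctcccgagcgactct
Mvd: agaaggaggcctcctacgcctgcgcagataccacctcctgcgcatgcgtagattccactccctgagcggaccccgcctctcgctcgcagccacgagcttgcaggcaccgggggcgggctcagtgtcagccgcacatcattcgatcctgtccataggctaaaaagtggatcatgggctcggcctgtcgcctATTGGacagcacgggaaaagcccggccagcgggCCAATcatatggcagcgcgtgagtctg
Fasn: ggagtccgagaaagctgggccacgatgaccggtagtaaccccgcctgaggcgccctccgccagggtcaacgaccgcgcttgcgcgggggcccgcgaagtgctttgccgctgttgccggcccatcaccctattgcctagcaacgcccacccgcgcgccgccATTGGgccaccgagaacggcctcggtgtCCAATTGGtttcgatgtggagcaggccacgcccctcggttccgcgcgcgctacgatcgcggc
Acly: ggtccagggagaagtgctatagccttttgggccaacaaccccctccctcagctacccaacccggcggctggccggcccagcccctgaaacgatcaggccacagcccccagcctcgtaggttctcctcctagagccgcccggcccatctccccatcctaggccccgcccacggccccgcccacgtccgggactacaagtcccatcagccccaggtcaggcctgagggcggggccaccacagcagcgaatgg
Hmgcs1 holds 3 CCAAT boxes and 1 SREBP element, Mvd 2 boxes, Fasn 3 boxes and Acly none. In Fasn, 2 of the 3 boxes overlap on opposite strands. The table matched 25 of the 31 genes, and Fdps, Fdft1, Sqle, Stard4, Scd1 and Scd2 were not matched.

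The NF-Y box was common in the sterol branch. It lay in the 250 bases upstream of 16 of the 17 matched sterol enzymes (94.1%), Acat2 being the exception, against 37.5% of all 27025 genes of the promoter table and 40.1% of the matched genes tested in the expression tables. At least 2 boxes lay upstream of 11 of those 17 (64.7%), against 14.4% of the tested genes. Mvk, mevalonate kinase, had the most, with 5. Among sensing genes, Insig1, Srebf1 and Srebf2 had at most 1 box in a promoter and Scap none, and of the 4 matched fatty acid enzymes Fasn had boxes while Acly, Acaca and Elovl6 had none. The strict SREBP element was found upstream of Hmgcs1 alone among the 25 genes and of 1.22% of all genes. Both strands were searched, a gene counted if any of its promoters held the motif, and a match is a description of these letters only.

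In control cells the order of the 31 genes by level differed between the populations. The levels compared here are the authors' deposited control means divided by exon length in kilobases (kb), a description with no test, since the tables were normalised separately. In E11.5 pericytes the highest were Scd2, a stearoyl-CoA desaturase, at 2369, Acat2, which joins acetyl units, at 2025, and Hmgcs1 at 1608. The lowest was Acaca, acetyl-CoA carboxylase, at 58.1. In E13.5 pericytes Scd2 led at 5889, followed by Hmgcs1 at 1249 and Srebf2 at 939.7. Endothelial cells had another order, with Lbr, a sterol C14-reductase that is also the lamin B receptor of the nuclear envelope, at the top at 2385. Scd2 came next at 1579 and Msmo1, a sterol C4-methyl oxidase, at 1428, while Fasn (75.7), Acaca (29.3) and Scd1 (16.5) were the lowest.

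The balance of the branches also differed. Summed over the 6 fatty acid and the 20 sterol enzymes, the level per kb of the fatty acid branch relative to the sterol branch was 0.312 in control E11.5 pericytes, 1.03 in control E13.5 pericytes and 0.227 in control endothelial cells. Scd2 is a large part of that sum, and without it the ratios were 0.124, 0.334 and 0.106. The ratio of Fasn to Hmgcs1, both per kb, was 0.166, 0.631 and 0.0605 in the same order. Lbr and Tm7sf2 both encode a sterol C14-reductase, and the ratio of Lbr to Tm7sf2 per kb was 7.17 in control E11.5 pericytes, 3.57 in control E13.5 pericytes and 28.3 in control endothelial cells. All these ratios set longer genes over shorter ones. Control levels differed between the tables with exon length, as given below, and dividing by kb does not remove that.

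**Figure D1:**
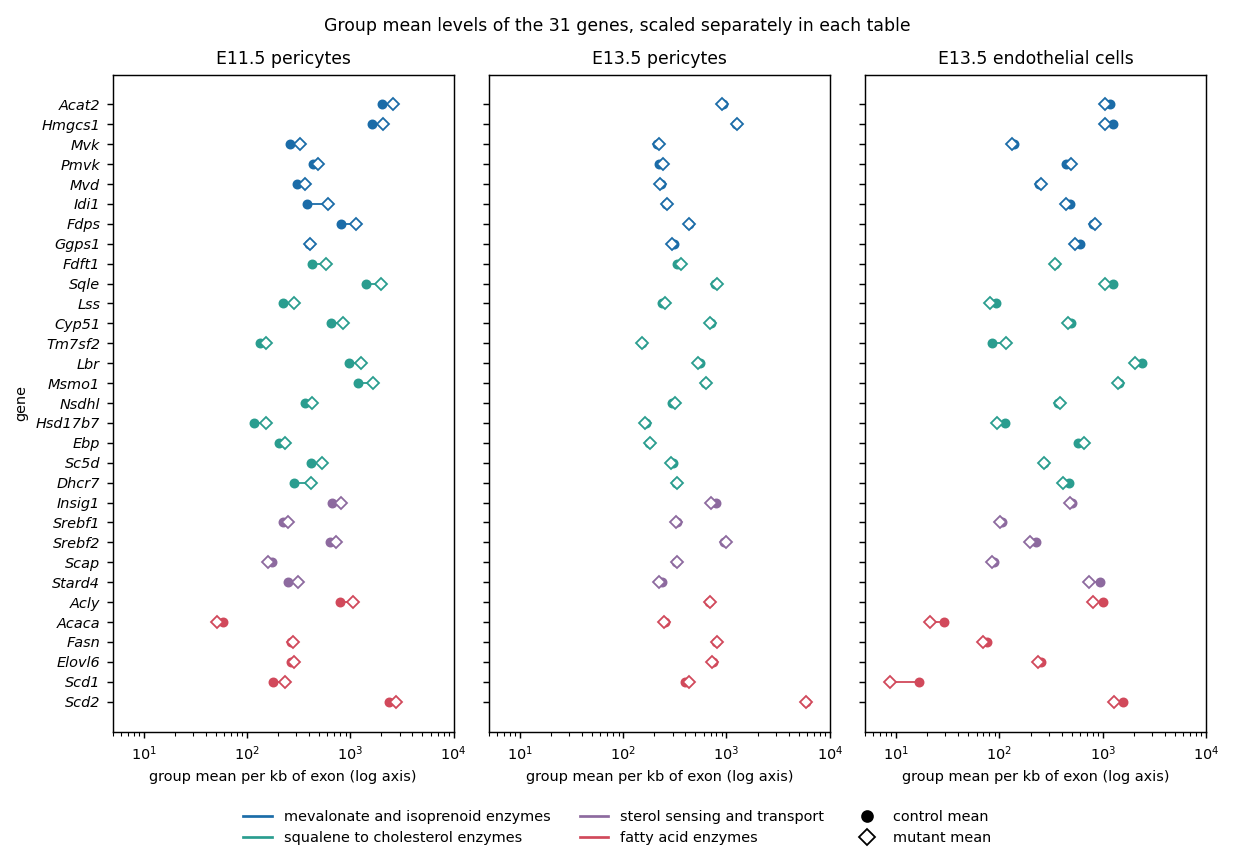
Group means per kb of exon (horizontal log axis, normalised counts per kb) of the 31 genes, by table, with filled circles for controls, open diamonds for mutants and colours for the gene groups. Scd2 leads both pericyte panels and Lbr the endothelial one, and Scd1, Acaca and Fasn sit lowest in endothelial cells.

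From E11.5 to E13.5, control pericytes had higher means of most fatty acid enzymes and lower means of most sterol enzymes, on the log2 scale of the deposited control means. Acaca differed by 2.14, Fasn by 1.56, the elongase Elovl6 by 1.46, Scd2 by 1.31 and Scd1 by 1.16, whereas Acly differed by -0.24. The median of the 20 sterol enzymes was -0.36, with 5 of 20 above 0, and the lowest were Acat2 at -1.12, Pmvk at -0.96 and Msmo1 and Fdps at -0.93 and -0.93. Over all genes this difference moved with exon length: with genes split by length into 4 classes of equal size, the medians from short to long were 0.047, 0.12, 0.48 and 1.03. The fatty acid genes are long, with a median of 5795 exon bases against 2893 for the sterol enzymes. Relative to the median of each gene's own length class, 5 of 6 fatty acid enzymes lay higher (median 0.36) and 1 of 20 sterol enzymes did (median -0.84). The longest class spans 4546 to 123179 bases, so this centring does not remove length within it. Among the 6 fatty acid enzymes, Acaca and Fasn, with 9513 and 10050 exon bases, had the largest differences. Acly, with 4610, had the lowest. What the difference by length comes from was not tested.

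Between control pericytes and endothelial cells at E13.5, the fatty acid enzymes had larger differences than between the stages, and the sterol enzymes a median of about the same size. On the same log2 scale, the pericyte mean exceeded the endothelial one by 4.58 for Scd1, 3.38 for Fasn, 3.12 for Acaca and 2.04 for Srebf2. Endothelial cells had the higher mean of Lbr (difference -2.12), of Stard4, a carrier that moves cholesterol between membranes (difference -2.01), and of Ebp, the sterol isomerase (difference -1.70). The median was 2.51 for the fatty acid enzymes, with Acly the exception at -0.59, and -0.33 for the sterol enzymes. Medians of all genes by length class ran from -0.41 for the shortest to 0.94 for the longest here. Relative to their own class the fatty acid enzymes had a median of 1.57, with 5 of 6 above, and the sterol enzymes one of -0.41, with 5 of 20 above. Here too, length within a class is not removed.

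**Figure D2:**
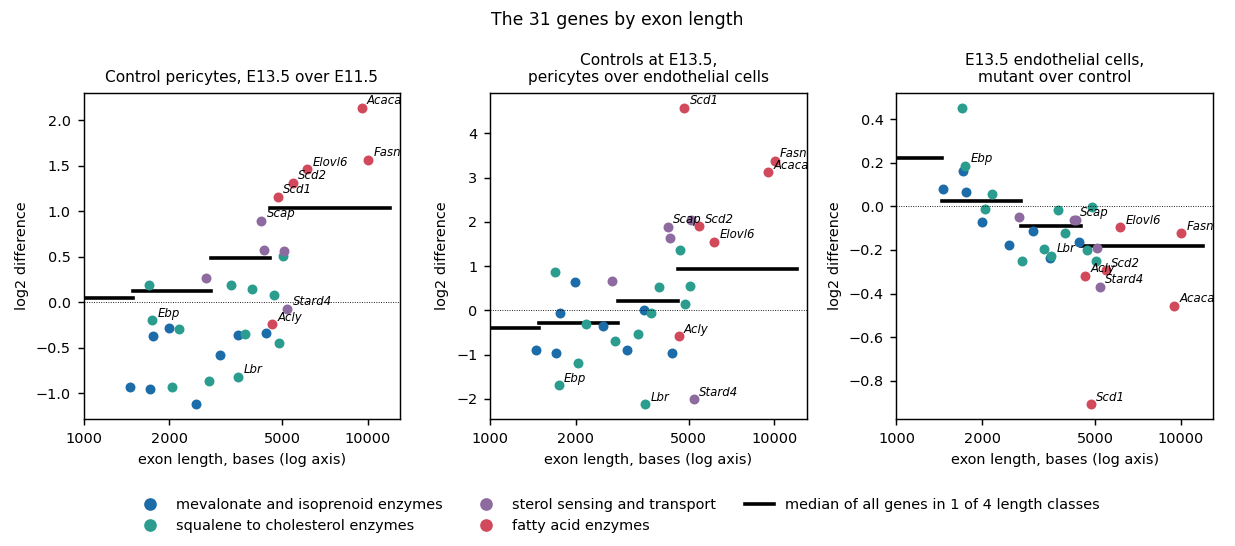
Log2 differences (vertical axis) of the 31 genes against exon length in bases (horizontal log axis), in control pericytes between the stages, in controls between the cell types, and between mutant and control endothelial cells. Points are genes, coloured by group, and bars are medians of all genes in each of 4 equal classes of exon length, which rise with length in the left and middle panels and fall from 0.22 to -0.18 in the right panel.

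In E11.5 pericytes, mutant means of the sterol enzymes were above the control means throughout, but no gene passed the test singly. Of the 31 genes 0 were called by DESeq2, against 3.35% of all 19301 tested genes, and 29 had a ratio above 1, as did 49.6% of all genes and 67.4% of the highest 25% by level. The unadjusted p was under 0.05 for 7, all higher, where 6.3% of all genes and 11.3% of the highest 25% were. For the 20 sterol enzymes all ratios were above 1, with a median log2 ratio of 0.37, against -0.0044 for all genes and 0.096 for the highest 25%. The summed mean of the 20 was 1.31 times that of controls. Centring on the highest 25% by level left a median of 0.27, with 19 of 20 above 0.

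In the mevalonate pathway the largest ratio belonged to Idi1, which interconverts the isoprenoid units. Its deposited mean was 1857 in the mutant and 1163 in the control group, a log2 ratio of 0.68 ± 0.29 (SE; 4 and 4 libraries; adjusted p = 0.187, DESeq2). Fdps, which makes farnesyl diphosphate, had the smallest p of the 31, with means of 1644 and 1190.3 and a log2 ratio of 0.47 ± 0.17 (adjusted p = 0.107, DESeq2). Mvk had means of 647 and 519.9, a log2 ratio of 0.32 (unadjusted p = 0.0226 in the authors' deposited table from DESeq2). Hmgcs1, whose promoter is shown above, had means of 7160.1 and 5598 and a 95% interval of the log2 ratio from -0.011 to 0.72. Acat2 (0.34), Mvd (0.26) and Pmvk (0.16) had smaller log2 ratios. Ggps1, which turns farnesyl into geranylgeranyl diphosphate for protein prenylation and so leads away from cholesterol, had the smallest, 0.047, with an interval from -0.17 to 0.26.

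Among the enzymes from squalene to cholesterol, the authors' deposited table gave Dhcr7, whose product is cholesterol in one of the 2 closing routes, means of 1364 in mutants and 937 in controls. Its log2 ratio was 0.54 ± 0.21 (adjusted p = 0.127, DESeq2). Sqle, the squalene epoxidase, followed with 5511 and 3891 (0.50 ± 0.29), and Msmo1 with 3377 and 2412 (0.49 ± 0.23). Fdft1, squalene synthase, had 2152 and 1569 (0.46), and Sc5d, a desaturase of the sterol ring, 2615 and 2016 (0.38). Unadjusted p was under 0.05 for Dhcr7, Msmo1, Fdft1 and Sc5d of these. The other 7 enzymes of this stretch, Cyp51, Hsd17b7, Lbr, Lss, Nsdhl, Tm7sf2 and Ebp, had log2 ratios between 0.18 (Ebp) and 0.41 (Cyp51). The median of the 12 was 0.39, and that of the 8 mevalonate and isoprenoid enzymes 0.33.

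The sensing genes had smaller ratios. In the authors' deposited table Stard4 had a log2 ratio of 0.32, Insig1 0.28, Srebf2 0.19 and Srebf1 0.18, while Scap was on the other side at -0.16. None of the 5 had an unadjusted p under 0.05. Of the fatty acid enzymes, Acly had means of 4872 and 3656 (0.41 ± 0.24), Scd1 a log2 ratio of 0.40 and Scd2 one of 0.24. Elovl6 (0.091) and Fasn (0.057) lay nearer to 0, and Acaca was at -0.19. Their median was 0.17, with 0 unadjusted p under 0.05. Centring on the highest 25% by level put 3 of the 6 above and 3 below 0, with a median of 0.070. Ratios of all genes fell with exon length here, from a median of 0.071 in the shortest class to -0.10 in the longest, and relative to their own class the 6 had a median of 0.27, with 5 above.

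Markers of other cells and of the cell cycle also differed at E11.5. All 14 cell cycle genes had a ratio above 1, with a median log2 ratio of 0.44. Their summed mean was 48873 in mutants and 36470.3 in controls, a ratio of 1.34, and Rrm1 was called. Endothelial markers were below 1 in 9 of 9 tested (median -1.02), with a summed mean of 668 in mutants against 1260.1. The median was -0.99 for 12 of 12 myeloid markers below 1 (1413 against 2728), and -0.91 for fibroblast and meninges markers, 10 of 12 below 1 (78418 against 103384). Red cell markers were below 1 in 5 of 5 tested, with summed means of 60.9 and 132. Of the pericyte markers, 9 of 11 were below 1, and Rgs5, Kcnj8, Abcc9 and Cspg4 were among the 5 called lower. The part of these lists in the sterol result was not tested.

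The wider pathway at E11.5 held 1 called gene of 56, Abca1, the LXR-driven pump that exports cholesterol. Its mean in the authors' deposited table was 193 for mutants against 475 for controls, a log2 ratio of -1.30 ± 0.22 (adjusted p = 4.20e-06, DESeq2). Genes called lower made up 2.7% of all tested genes. The endothelial and myeloid markers had median log2 ratios of -1.02 and -0.99 in the same comparison. The control mean of Abca1 was higher in endothelial cells (below), though on a separate scale. The part of other cells in the Abca1 value was not tested. With the spread rescaled so that the median test statistic equals that of a standard normal, the adjusted p of Abca1 was 0.108 (implied SE from DESeq2). Of the 56 genes, 33 had a ratio above 1, with a median of 0.11. Fads2, a desaturase of polyunsaturated fats, had a log2 ratio of 0.28. By list, ratios above 1 numbered 8 of 10 for other sterol synthesis and SREBP control, 5 of 10 for sterol uptake and storage, 3 of 9 for LXR, efflux and oxysterols, 9 of 16 for other fatty acid synthesis and 8 of 11 for isoprenoid users.

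**Figure D3:**
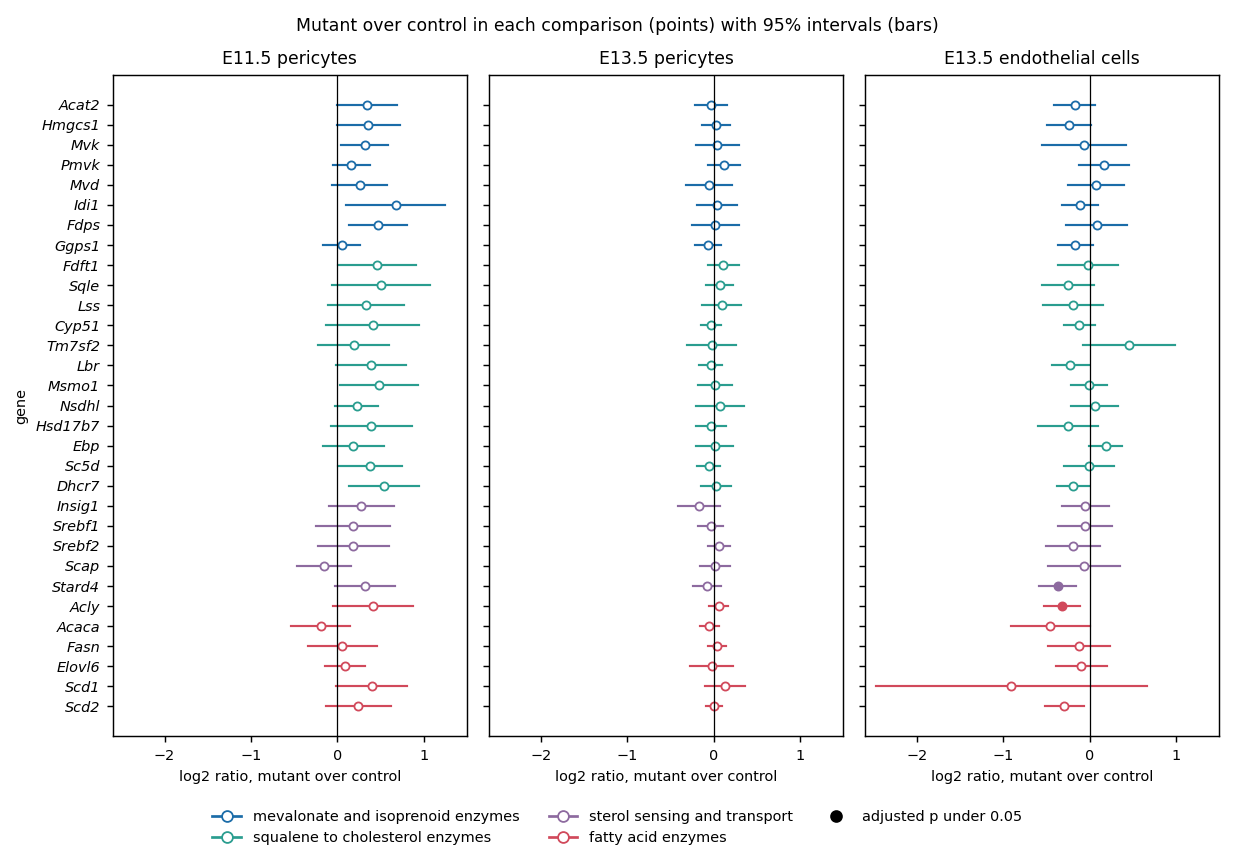
Log2 ratio of mutant over control (horizontal axis) for each of the 31 genes in the 3 comparisons, with bars for the 95% interval implied by the authors' deposited p and filled points for an adjusted p under 0.05. In E11.5 pericytes 29 points lie above 0, in E13.5 pericytes all lie between -0.17 and 0.13, and in endothelial cells Stard4 and Acly are filled, both below 0.

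In E13.5 pericytes the 31 genes had nearly equal means in mutants and controls. DESeq2 called 0 of them, against 0.388% of all 20084 tested genes, and 0 had an unadjusted p under 0.05, against 4.06%. Ratios were above 1 for 18 of 31 and for 50.4% of all genes. The sterol enzymes had a median log2 ratio of 0.017, and ranged from -0.065 (Ggps1) to 0.12 (Pmvk, phosphomevalonate kinase). Their 95% intervals, taken gene by gene from the implied SE, reached from -0.31 to 0.35. They are not a joint bound for the 20 enzymes, and the groups also differed in Xist (below). Fatty acid enzymes had a median of 0.024.

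Single values at E13.5 were close. In the authors' deposited table Hmgcs1 stood at 4443 for mutants and 4350.4 for controls, Sqle 2236 and 2131, and Idi1 799 and 779. Scd2, the highest of the 31, had 32270.5 and 32124, with an interval of the log2 ratio from -0.083 to 0.096. Fasn had 8151 and 7921, with an interval from -0.066 to 0.15. The smallest unadjusted p, 0.159 (DESeq2), belonged to Insig1, with means of 1911 and 2156 and a log2 ratio of -0.17. Pmvk (415 and 383), Fdft1 (1332 and 1233; 0.11), Acly (3225 and 3092; 0.061) and Stard4 (1155 and 1221; -0.079) had unadjusted p between 0.218 and 0.331, also from DESeq2. Srebf2 (0.063), Scap (0.012) and Srebf1 (-0.034) were near 0. The largest ratio was that of Scd1, 2092 against 1911 (0.13).

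Of the wider pathway, 1 of 55 tested genes was called at E13.5. Abcg1, a pump that passes cholesterol to lipoproteins, averaged 175 for mutants and 252 for controls by the authors' deposited table, a log2 ratio of -0.52 ± 0.14 (adjusted p = 0.0434, DESeq2). Its adjusted p (DESeq2) was 0.0514 when genes with a p but no deposited adjusted p were also counted. By the SE implied by DESeq2's p, it was 0.0606 after scaling to the summed means, 0.0432 after centring by exon length and 0.00345 with the spread rescaled. That rescaling raised the calls over all genes from 78 to 142 here. Genes called lower were 0.164% of all tested genes. Abca1 (0.084) and Fads2 (0.053) lay near 0, and 33 of 55 ratios were above 1. The 14 cell cycle genes had a median of 0.016. Of the red cell markers 7 of 7 tested had a ratio above 1, with a median log2 ratio of 2.08 and a summed mean of 2091 in mutants against 487, and DESeq2 called 0, with 3 at an unadjusted p under 0.05. Xist, which is transcribed from the inactive X chromosome of females, had a mean of 5.73 for mutants and 36145 for controls there. The X-linked Eif2s3x, Kdm6a and Ddx3x had log2 ratios of -0.48, -0.48 and -0.17 there, none called. A difference in sex between the groups cannot be told apart from genotype in this comparison. The X-linked Nsdhl and Ebp had log2 ratios of 0.075 and 0.015 there, and the part of the red cell markers and Xist in the other values was not tested.

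In E13.5 endothelial cells most of the 31 genes had lower means in mutants, and 2 were called lower. Genes called either way were 7.3% of all 18132 tested genes and those called lower 2.19%. Ratios were below 1 for 25 of 31, against 51.7% of all genes and 55.8% of the highest 25% by level. Unadjusted p was under 0.05 for 6, all lower, against 8.84% of all genes and 14.3% of the highest 25%. Of all genes 926 were called higher and 397 lower, and after scaling to the summed means, which lowers every log2 ratio by 0.13, these were 634 and 1565, with 7 of the 31 called lower. The summed means include the red cell markers given below, which had higher means in mutants. The fatty acid enzymes lay below 1 in 6 of 6, with a median log2 ratio of -0.31, the sensing genes in 5 of 5 (median -0.062) and the sterol enzymes in 14 of 20 (median -0.091), against -0.013 for all genes.

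Stard4, the cholesterol carrier, had the smallest p. Its mean in the authors' deposited table was 3803 in mutants (3 libraries) and 4913 in controls (5 libraries), a log2 ratio of -0.37 ± 0.11 (adjusted p = 0.0159, DESeq2). Acly had means of 3732 and 4654, a log2 ratio of -0.32 ± 0.11 (adjusted p = 0.0399, DESeq2). Both calls were lost when ratios were centred by exon length. Over all genes the ratio fell with exon length, from a median of 0.22 in the shortest class to -0.18 in the longest. Centred on their own class, Stard4 had a log2 ratio of -0.19 (adjusted p = 0.447) and Acly one of -0.14 (adjusted p = 0.626), by the SE implied by DESeq2's p. Neither Stard4 nor Acly passed when the spread was rescaled as for Abca1 above, with adjusted p = 0.491 for Stard4 and 0.642 for Acly (DESeq2-based). The other sensing genes, Srebf2 (-0.19), Scap (-0.062), Srebf1 (-0.061) and Insig1 (-0.050) (log2 ratios), were not called. Relative to their own length class the 5 sensing genes had a median of -0.011, with 2 of 5 above.

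Of the other fatty acid enzymes in endothelial cells, Scd2 had deposited means of 7030.3 (mutant) and 8615 (control) (-0.29 ± 0.11; adjusted p = 0.0928, DESeq2) and Acaca 203 and 279 (-0.46 ± 0.23). Fasn (-0.12) and Elovl6 (-0.096) differed less. Scd1 was low in these cells, with means of 42.5 and 79.7, and its interval ran from -2.47 to 0.66. Relative to their own length class the 6 enzymes had a median of -0.13, with 2 of 6 above.

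Among the sterol enzymes the largest mean was that of Lbr, 7151 for mutants and 8371 for controls by the authors' deposited table (-0.23 ± 0.11; adjusted p = 0.212, DESeq2). Dhcr7 had means of 1358 and 1555 (-0.20), Hmgcs1 3696 and 4359 (-0.24) and Sqle 2911 and 3466 (-0.25). On the other side stood Tm7sf2, with 196 and 143 (0.45 ± 0.27), and Ebp, with 1143 and 1004 (0.19 ± 0.098). Pmvk (0.16), Fdps (0.081), Mvd (0.066) and Nsdhl (0.056) were also above 0. The other 10 lay between -0.25 (Hsd17b7) and -0.0049 (Sc5d). The ratio of Lbr to Tm7sf2 per kb was 17.6 in mutants and 28.3 in controls, a difference with no test. Relative to its own length class the sterol branch had a median of -0.029, with 8 of 20 above.

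The wider pathway in endothelial cells held 4 called genes of 51 tested, 3 lower and 1 higher. That share is near the 7.3% of all tested genes called either way, with 2.19% called lower. By the authors' deposited table Abca1 averaged 3497 for mutants and 4846 for controls (-0.47 ± 0.11; adjusted p = 0.00118, DESeq2). The proteases that cleave SREBPs in the Golgi were also lower, Mbtps1 with 1715 and 2171 (-0.34; adjusted p = 0.0295, DESeq2) and Mbtps2 with 615 and 836 (-0.44; adjusted p = 0.0379, DESeq2). Apoe, the lipid carrier that macrophages also make, was higher, as were 5.11% of all tested genes, 29042 against 15367 (0.92 ± 0.26; adjusted p = 0.00908, DESeq2). Centred by length, Abca1 (-0.29), Mbtps1 (-0.25) and Mbtps2 (-0.26) no longer passed. With the spread rescaled none of the 4 passed, the smallest adjusted p being 0.212 (Abca1, SE from DESeq2). Fads2 (-0.10) was not called. Ratios were below 1 for 32 of the 51.

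Other lists differed in the endothelial table. All 10 red cell markers had a ratio above 1, with a summed mean of 1716420 in mutants and 64015.7 in controls, a ratio of 26.8, and 9 were called. Myeloid markers had a ratio above 1 in 12 of 12, with a summed mean of 31293 against 20943 and 3 called higher. Endothelial markers had a ratio below 1 in 9 of 12 (median -0.24), with Kdr called lower, and the 14 cell cycle genes a median of -0.096. The X-linked Eif2s3x, which escapes inactivation, had a log2 ratio of -0.46 (adjusted p = 0.00961, DESeq2), and Mbtps2, Nsdhl and Ebp are X-linked. Kdm6a (-0.42) and Ddx3x (-0.18), also X-linked, were not called. Xist had no value in endothelial cells or in E11.5 pericytes. The part of these values in the results above was not tested.

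**Figure D4:**
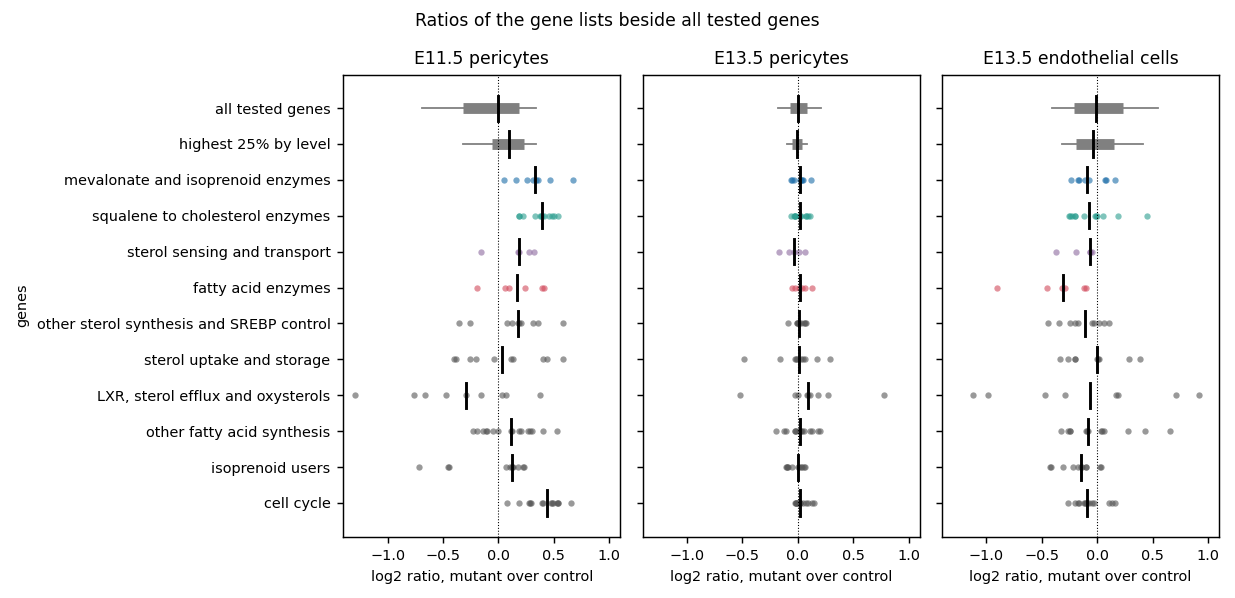
Log2 ratio of mutant over control (horizontal axis) by gene list (vertical axis) in the 3 comparisons. Points are genes, black ticks medians, and for all tested genes and the highest 25% by level thick bars span the middle 50% and thin lines the middle 80% of genes; in E11.5 pericytes the sterol lists (0.33 and 0.39) and the cell cycle list (0.44) lie to the right of both.

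Whether the ratio differed between stages was tested on the difference of the log2 ratios, E11.5 minus E13.5. Of the 31 genes 0 passed Benjamini-Hochberg adjustment, against 1.43% of 18267 genes, and 6 had an unadjusted p under 0.05 against 13.3%. Dhcr7 had the smallest p, with a difference of 0.51 ± 0.22 (adjusted p = 0.279, from the SE implied by DESeq2's p). For Idi1 the difference was 0.64 ± 0.31, for Fdps 0.45 ± 0.22, for Insig1 0.45 ± 0.23, for Sc5d 0.43 ± 0.20 and for Stard4 0.40 ± 0.19. Fasn had a difference of 0.016, with a 95% interval from -0.40 to 0.43. In the wider pathway Abca1 passed, at -1.38 ± 0.24 (adjusted p = 2.77e-05, from the SE implied by DESeq2's p; 0.170 with the spread rescaled).

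Between the cell types at E13.5, pericytes minus endothelial cells, 1 of the 31 genes passed, against 3.94% of 16920 genes. It was Acly, with a difference of 0.38 ± 0.12 (adjusted p = 0.0413, from the SE implied by DESeq2's p), which did not pass after centring by length (0.20; adjusted p = 0.600), on the median of all genes (adjusted p = 0.0533) or with the spread rescaled (adjusted p = 0.524). Scd2 had a difference of 0.30 ± 0.12 (adjusted p = 0.169) and Stard4 one of 0.29 ± 0.14 (adjusted p = 0.265), by the same DESeq2-based test. For Hmgcs1 it was 0.27, with an interval from -0.033 to 0.57. Abca1 passed, at 0.55 ± 0.15 (adjusted p = 0.00955, DESeq2-based), but not after centring by length (adjusted p = 0.260) or with the spread rescaled (0.181). The E13.5 pericyte table enters both the stage and the cell type differences, and with it the gap in Xist between its mutants and controls. The part of sex in these differences was not tested.

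Some of the 31 have close paralogues or exons that overlap another gene in GENCODE vM21. Acat2 has a near copy, Acat3, whose log2 ratios were 0.35, -0.048 and -0.15 in the 3 deposited tables, and Scd1 and Scd2 have the paralogues Scd3 and Scd4. Exons overlap those of a neighbour on the opposite strand for Fdft1 (Ctsb), Cyp51 (Akap9), Srebf1 (Rai1), Lss and Hmgcs1 (antisense transcripts) and Idi1 and Scap (unclassified transcripts). On the same strand they do for Tm7sf2 (Vps51), Fdps (another gene model) and Scd2 (a microRNA). The sources used here do not state whether counting used strand, and how reads of such genes were divided was not tested, which leaves those values uncertain.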

How the data were processed

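Per the labels' protocols, KAPA libraries of messenger RNA from sorted mouse cells were run on a NovaSeq. The submitters' processing notes name Partek, Bowtie2, DESeq2 and the build mm10, with no versions. Annotation, counting and model are not given in the sources used here, per the labels and file headers. The 3 tables hold the authors' own comparisons. A deposited table holds, per the file headers, the authors' FDR and p-value, the mutant/control ratio, a signed fold score and a mean signal for either group. The authors' FDR was recomputed by Benjamini-Hochberg adjustment over the genes with one (19301, 20084 and 18132) and is printed as the adjusted p of the authors' DESeq2 test. Genes with an adjusted p under 0.05 were called.

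The planned tests on libraries gave way to these values, since values per library were not analysed here, so depth per sample is unknown and no counting interval is given. The SE of a log2 ratio was taken from the deposited ratio and two-sided p, assuming a Wald test and a normal reference. Differences between tables were divided by the root of their summed squared SE and adjusted over all genes in both tables. This takes the 2 tables as independent, which was not tested. Simulated log2 ratios with normal errors of the implied SE were put through these steps. Of changes of 1 log2 unit, 64%, 83% and 63% were called in the 3 tables. For the stage and cell type differences the shares were 55% and 53%. Changes under 1 log2 unit were not simulated, and the log2 ratios of the 31 genes were all smaller than that in the 3 tables. These shares therefore do not say how often changes of the size seen would be called. The simulation shares the normal assumption and the implied SE, so it cannot check either. Exon length is the union of exons in GENCODE vM21 (97.5% of tested genes matched by symbol). Promoters come from RefSeq (GRCm38.p6). Scripts ran in Python 3.11.15 with scipy 1.17.1, numpy 2.4.6, matplotlib 3.10.9 and pandas 2.3.3.

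The 31 genes, the 5 further pathway lists (56 genes) and the marker lists were chosen with earlier results of these data known. Every one of the 31 is accounted for. Values are given in full for the 6 with the smallest p in a comparison and for those called. Of the pathway lists, called genes are named, and Abca1 and Fads2 in any case, while 3 others that the rule named are not reported here. Other names were chosen after their values were seen. Alternatives were FDR thresholds of 0.01 and 0.1, filters on level, scaling to the summed means, centring on the median and a pseudocount of 1. Added after seeing the data were a rescaled spread and centring by exon length or on the highest 25% of genes by level.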

Additional observations from a re-analysis of the deposited data

Results flagged for a closer look

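The log2 ratio of mutant over control for Abca1, the cholesterol exporter, differed between stages in the pericyte samples. At E11.5 minus E13.5 the difference was -1.38 ± 0.24 (SE; adjusted p = 2.77e-05, from the SE implied by DESeq2's p). The Abca1 ratio differed also between cell types at E13.5, pericytes minus endothelial cells, by 0.55 ± 0.15 (adjusted p = 0.00955, by the same DESeq2-based test). At E11.5 the endothelial and myeloid markers had medians of -1.02 and -0.99. The part of other cells in the Abca1 ratio was not tested. For Acly, which supplies cytosolic acetyl-CoA to both branches, the difference between cell types was 0.38 ± 0.12 (adjusted p = 0.0413, by the same DESeq2-based test). None of the 3 differences passed once the spread was rescaled, with adjusted p between 0.170 and 0.524. All 3 use the E13.5 pericyte comparison, whose groups also differed in Xist.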

How the results depend on the processing

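No paired analysis was possible because the tables give 1 mean per group and no values per library, so the replicate block and leaving out a replicate were not run. Of the counts and medians for the 31 genes, 61 alternative values stayed within the limits set for a change and 9 moved. All 9 concern endothelial cells. The count of 2 called genes there became 0 at an FDR of 0.01, 7 after scaling to the summed means (Hmgcs1, Ggps1, Lbr, Dhcr7, Stard4, Acly and Scd2, all lower), 1 after centring on the median (Stard4), 0 with the spread rescaled and 0 after centring by exon length. The summed means of the endothelial table were 22993900 in mutants and 21082900 in controls. They include the red cell markers, at 1716420 in mutants and 64015.7 in controls. The median of the fatty acid enzymes became -0.13 after centring by exon length. The count of 1 for the difference between cell types became 0 after centring on the median, 0 with the spread rescaled and 0 after centring by exon length. Causes of these changes were not tested.

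For single named genes 58 alternative values kept their side of the threshold, 26 lost it and 2 gained it. Over all genes, the rescaled spread gave 5 calls in place of 646 in E11.5 pericytes, 142 in place of 78 in E13.5 pericytes, 49 in place of 1323 in endothelial cells, 2 in place of 262 for the stage difference and 15 in place of 666 for the cell type difference. Centring by length gave 426 endothelial calls and 142 for the cell type difference. An FDR of 0.1 gave 1139, 101 and 1950 calls in the 3 tables, one of 0.01 gave 229, 37 and 655, and using only genes above the median level gave 318 at E11.5 and 109 for the stage difference. An FDR of 0.1 gave 447 and 988 for the differences. Scaling to the summed means gave 2199 endothelial calls, and turned the split in E13.5 pericytes from 45 higher and 33 lower to 60 and 26. Depth is unknown, so no limit from it can be given. The implied SE rests on a Wald test, and with 3 to 5 libraries per group the intervals are wide.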
